A study of Mus musculus with 16 samples.

Results

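Npr1, Npr2, Npr3 and Prkg1 are 4 genes of natriuretic peptide signalling, listed here among the 24934 gene symbols of the series. They were chosen by symbol from tables whose values were known, mainly on their brown fat levels, on sunitinib minus vehicle there, and on the difference Npr1 minus Npr3. Brown fat values of these genes are therefore a description and carry no test. The values of the other tissues were known as well, so their tests are given but are not independent evidence. Each of the 4 genes was listed in all 4 tissue tables, and 15 of the 16 gene and tissue pairs passed the filter for testing, which asked for a mean of 3 or more in that tissue. The pair below it was Prkg1 in liver. In the mouse genome the genes lie apart, on chromosomes 3 (Npr1), 4 (Npr2), 15 (Npr3) and 19 (Prkg1).

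RNA sequencing was done on total RNA from C57BL/6 mice that were 24 weeks old. Sunitinib (Sutent), a drug that blocks several receptor tyrosine kinases, among them those of vascular endothelial growth factor, was set against vehicle in brown fat, in the epididymal and inguinal depots of white fat, and in liver, with 2 sunitinib and 2 vehicle libraries in each tissue. The series states 8 mice with 4 per treatment, and the labels do not give the mouse or pool behind a library, the dose, the duration or the sex. The p-values therefore measure the spread between these libraries, which may be technical.

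Natriuretic peptides are hormones of the heart and of other tissues. Npr1 and Npr2 are receptors with a guanylyl cyclase inside the cell, and they answer the atrial and B-type peptides and the C-type peptide in that order. Npr3, the clearance receptor, binds all of these peptides, has no cyclase and removes them from the circulation. Prkg1 encodes the protein kinase that cyclic GMP switches on. In adipocytes this route leads to lipolysis and, in brown fat, to thermogenic genes, and in adipose tissue the level of Npr3 relative to Npr1 is known to limit it.

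The deposited values are regularized log2 expression (rlog), normalized by the authors within each tissue and not per gene length. They carry no read totals, so the depth is unknown and counting error cannot be given. Defining markers fitted the tissue labels, with Ucp1 at 16.46 to 16.93 in brown fat, and 8 hepatocyte markers averaging 16.07 to 16.12 in liver, while 8 adipocyte markers averaged 14.77 to 15.35 in the libraries of the white depots. Skeletal muscle markers set libraries apart within 2 tissues. Their 8 genes averaged 10.23 and 9.47 in sunitinib brown fat, against 8.16 and 12.06 in vehicle brown fat, and 12.36 and 8.88 in sunitinib inguinal fat, against 14.25 and 12.94 in vehicle inguinal fat. Sunitinib replicate 1 of epididymal fat stood apart in smooth muscle genes, with Myh11 at 13.61 there, 9.93 in the other sunitinib library, and 9.41 and 10.11 in vehicle libraries.

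**Figure D1:**
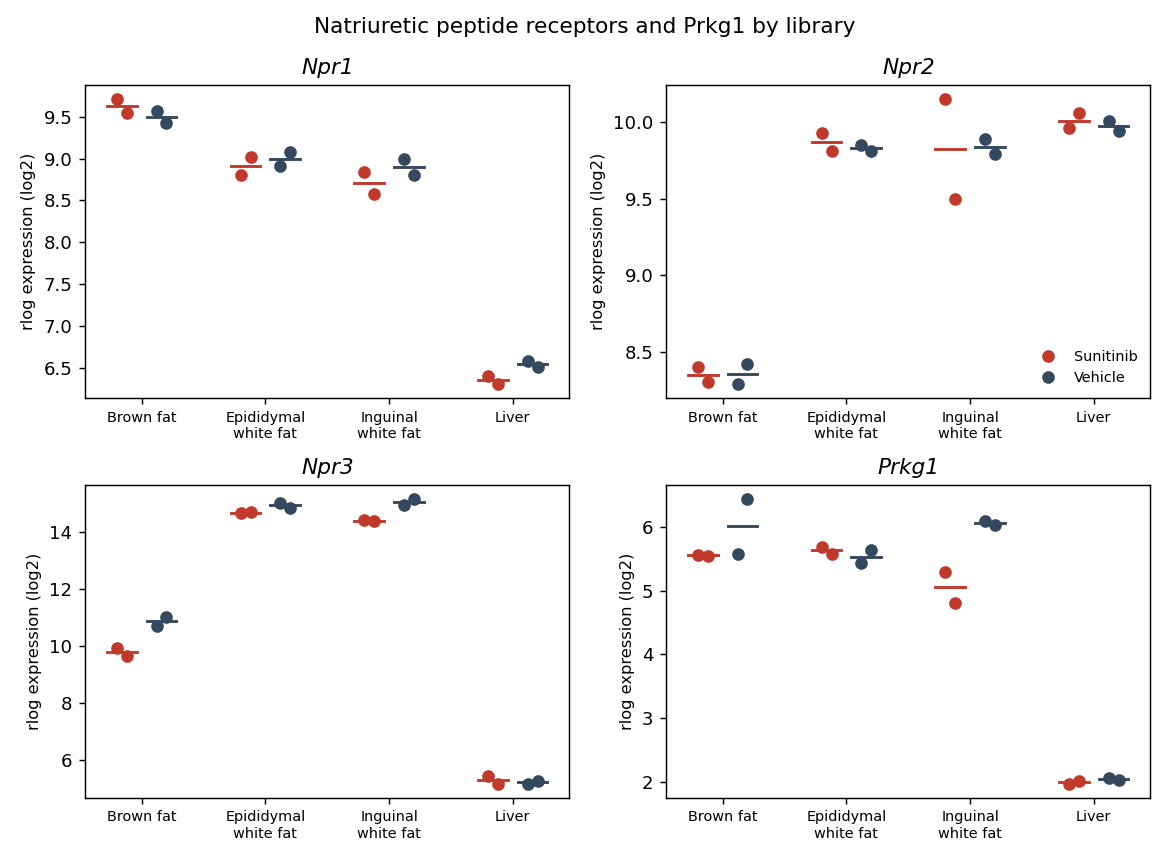
Regularized log2 expression (vertical axis) of the 4 genes in each tissue, with 1 point per library, sunitinib in red left of vehicle in blue-grey, and bars at the mean of 2 libraries. Npr3 lay lower in both sunitinib libraries than in both vehicle libraries of all 3 fat depots, and each panel has its own scale.

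In vehicle mice the 4 genes differed widely in where they were expressed. Because the tables were normalized separately, levels across tissues were not tested, and the percentile of a gene among the 16889 genes listed in all tables is given beside the rlog value. Npr3 stood at 14.95 and 15.15 in inguinal fat and at 15.02 and 14.84 in epididymal fat, at percentiles of 99.7 to 99.8 in the 4 libraries, and the 2 depots overlapped. It was lower in brown fat, at 10.71 and 11.02 (percentiles 94.9 and 95.9), and lowest in liver, at 5.19 and 5.27 (percentiles 43.1 and 43.8). Npr1 took another order, with 9.57 and 9.42 in brown fat (percentiles 87.9 and 86.7), 8.91 and 9.08 in epididymal fat and 8.99 and 8.80 in inguinal fat, which overlapped at percentiles of 67.1 to 70.9, and 6.58 and 6.51 in liver (percentiles 54.3 and 53.6).

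Npr2 was highest in liver, at 10.01 and 9.94 (percentiles 90.1 and 89.6). It overlapped between inguinal fat, at 9.89 and 9.79, and epididymal fat, at 9.85 and 9.81, and was lowest in brown fat, at 8.29 and 8.42 (percentiles 73.5 and 75.1). The kinase gene Prkg1 had the lowest values of the 4 genes in every tissue on the per-kilobase scale given next, which uses the longest coding transcript. With the shortest coding transcripts Prkg1 had a mean of 7.12 in vehicle inguinal fat, above Npr1 at 6.88. Prkg1 stayed lowest in the vehicle means of the other tissues. Its rlog value was 6.10 and 6.03 in vehicle inguinal fat, 5.58 and 6.44 in vehicle brown fat, 5.44 and 5.63 in vehicle epididymal fat, and 2.05 and 2.03 in vehicle liver. Brown and inguinal fat overlapped on this scale, while by percentile brown fat came first, at 43.7 and 50.8 against 37.3 and 37.2 in inguinal fat.

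Levels of different genes can be set side by side only per length, and this was done by subtracting the log2 length in kilobases of the longest coding transcript of GENCODE M21. On that per-kilobase scale the clearance receptor exceeded both cyclase receptors in white fat. In inguinal fat the vehicle means per kilobase were 12.27 for Npr3, 7.97 for Npr2 and 6.88 for Npr1, and in epididymal fat they were 12.15, 7.96 and 6.98 in the same order. In liver the order was different, with Npr2 at 8.11, Npr1 at 4.52 and Npr3 at 2.45. In brown fat Npr1 and Npr3 lay close together, and their order depended on treatment. Per kilobase, sunitinib brown fat had a mean of 7.61 for Npr1 and 7.02 for Npr3, against 7.48 for Npr1 and 8.08 for Npr3 in vehicle brown fat. With all annotated exons joined as the length, the means were 7.37 and 6.57 in sunitinib brown fat, against 7.24 and 7.63 in vehicle brown fat, the same order. With the shortest coding Npr3 transcript of 1969 bases in place of the longest of 6892, Npr3 was above Npr1 in both groups, at 8.82 in sunitinib and 9.88 in vehicle brown fat. The isoform in use was not measured, so this order rests on the transcript chosen.

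The cyclase receptors Npr1 and Npr2 differed little between sunitinib and vehicle, and passed no test. In brown fat Npr1 had 9.71 and 9.54 in sunitinib libraries, against 9.57 and 9.42 in vehicle libraries, and the groups overlapped. The difference, log2 sunitinib minus vehicle ± SE from limma with 2 libraries per group, was 0.13 ± 0.09. Endothelial markers were higher in the same sunitinib libraries, with 10 of 10 genes positive at a median of 0.38 and a mean level of 10.21 and 10.10, against 9.91 and 9.59 in vehicle libraries. Npr1 is known from endothelium as well as from adipocytes, and the part of endothelial cells in its values was not tested. In bulk tissue fewer cells of a type and less RNA per cell cannot be told apart.

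Outside brown fat the Npr1 differences were negative and small. In epididymal fat it had 8.81 and 9.02 in sunitinib libraries, against 8.91 and 9.08 in vehicle libraries, a difference of −0.08 ± 0.10 (limma adjusted p = 0.702). Its direction turned without sunitinib replicate 1, to 0.03, and it was 0.00 without vehicle replicate 2. In inguinal fat it had 8.84 and 8.58 in sunitinib libraries, against 8.99 and 8.80 in vehicle libraries, a difference of −0.19 ± 0.15 (limma adjusted p = 0.589) that ran from −0.32 without sunitinib replicate 1 to −0.05 without sunitinib replicate 2. The groups overlapped in both depots. Liver was the tissue in which they did not, with 6.40 and 6.31 in sunitinib livers and 6.58 and 6.51 in vehicle livers, a difference of −0.19 ± 0.07 that did not pass (unadjusted p = 0.0255, limma adjusted p = 0.485, Benjamini-Hochberg over 12394 genes). Both sunitinib livers lay below both vehicle livers in 19.2% of all genes tested. Endothelial markers were negative for 10 of 10 genes in epididymal fat, 10 of 10 in inguinal fat and 9 of 10 in liver, with medians of −0.37, −0.28 and −0.12.

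Npr2, which is known mostly as the receptor of the C-type peptide in growth plate, vessel wall and nervous system, showed no difference beyond the spread between libraries in any tissue. In brown fat it had 8.40 and 8.30 in sunitinib libraries and 8.29 and 8.42 in vehicle libraries, so the groups overlapped fully. The differences were 0.04 ± 0.07 in epididymal fat, −0.02 ± 0.24 in inguinal fat and 0.03 ± 0.08 in liver, with limma adjusted p = 0.766, 0.977 and 0.957 in that order. The wide error in inguinal fat came from the sunitinib pair, at 10.15 and 9.50, which lay on either side of the vehicle values of 9.89 and 9.79. Leaving out sunitinib replicate 1 of inguinal fat gave −0.34 and leaving out sunitinib replicate 2 gave 0.30, neither past the threshold (limma adjusted p = 0.0549 and 0.148).

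Npr3, the clearance receptor, was lower with sunitinib in brown fat and carried the widest gap of the 4 genes there. It had 9.93 and 9.67 in sunitinib libraries, against 10.71 and 11.02 in vehicle libraries, and the lowest vehicle library lay above the highest sunitinib library. The difference was −1.06 ± 0.14, which is 0.478 times the vehicle level. It stood at −0.91 to −1.22 when any 1 library of the tissue was left out. Npr3 was chosen on this contrast, so its size and range are a description only. The vehicle library with 10.71 had the lowest skeletal muscle average of the tissue, 8.16, and the one with 11.02 had the highest, 12.06. The 8 adipocyte markers had a mean level of 13.02 and 12.93 in sunitinib and 12.78 and 12.88 in vehicle brown fat, and a median difference of 0.05. Among them Cfd, which encodes the secreted protease adipsin, had 13.75 and 13.30 in sunitinib libraries, against 12.38 and 12.68 in vehicle libraries, with no overlap (unadjusted p = 0.00208, limma adjusted p = 0.228).

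Of the 4 genes, Npr3 and Prkg1 had both sunitinib libraries below both vehicle libraries in brown fat, where this was so for 24% of all genes tested. The members were chosen on this contrast, so nothing is read from that count. Over all 13044 genes of brown fat limma called 0 genes at an adjusted p below 0.05, which is 0%, with 1191 higher and 910 lower at an unadjusted p under 0.05.

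In both white depots Npr3 also lay lower with sunitinib, at differences that did not pass the test. Inguinal fat had 14.41 and 14.37 in sunitinib libraries, against 14.95 and 15.15 in vehicle libraries. The difference was −0.66 ± 0.18 (unadjusted p = 0.0195, limma adjusted p = 0.346), and the groups were apart, as they were in this direction for 26.4% of all genes there. Leaving out sunitinib replicate 1, which left 1 sunitinib library assumed to vary like the vehicle pair, gave −0.68. Over the alternatives without 1 library the difference ran from −0.76 to −0.56, and with quantile normalization it was −0.43 (limma adjusted p = 0.398). Limma called 0 of 14916 genes in inguinal fat, 0%, with 578 higher and 1313 lower at an unadjusted p under 0.05.

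Epididymal fat, which held Npr3 at a level close to that of inguinal fat, had the smaller gap. Npr3 was at 14.65 and 14.68 in sunitinib libraries, against 15.02 and 14.84 in vehicle libraries, a difference of −0.26 ± 0.11 (limma adjusted p = 0.277). It was −0.17 without vehicle replicate 1, −0.35 without vehicle replicate 2 and −0.17 with quantile normalization. The groups did not overlap, as in 26.8% of genes in this direction. Here limma called 363 of 15526 genes, 2.34%, and 0 of the 4 members, for which the smallest unadjusted p was the 0.0632 of Npr3. In liver, where Npr3 was low, it had 5.46 and 5.19 in sunitinib libraries, against 5.19 and 5.27 in vehicle libraries. That difference was 0.09 ± 0.08 (limma adjusted p = 0.851), and limma called 24 of 12394 liver genes, 0.194%, with 0 of 3 members tested among them.

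**Figure D2:**
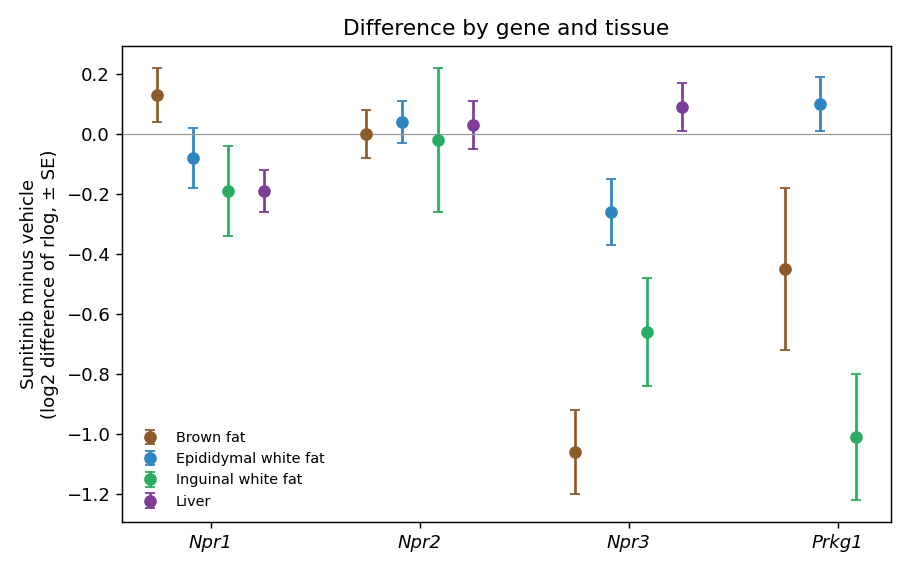
Sunitinib minus vehicle (vertical axis, log2 difference of rlog values) of the 4 genes by tissue, with SE bars from limma and 2 libraries per group. Npr3 was lowest in brown fat at −1.06, followed by inguinal fat at −0.66 and epididymal fat at −0.26, while Prkg1 was lowest in inguinal fat at −1.01 and was not tested in liver.

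Whether the sunitinib effect differed between tissues was tested with interaction contrasts among the white depots and liver. Brown fat was left out because it had chosen the genes. For Npr3 the effect in inguinal fat minus that in liver was −0.75 ± 0.16 (limma adjusted p = 0.180), and the effect in epididymal fat minus that in liver was −0.35 ± 0.14 (limma adjusted p = 0.213). Inguinal minus epididymal fat gave −0.40 ± 0.18 (limma adjusted p = 0.510). These contrasts called 5 of 11626 genes, 0.043%, 467 of 11831, 3.95%, and 0 of 14352, 0%, in the same order. The members passed in 0 of their 10 contrasts, 3 of which had an unadjusted p under 0.05, as had 13.7%, 18.8% and 10.1% of all genes in these contrasts, and the Prkg1 contrast was the largest in size, −1.11 ± 0.24 for inguinal minus epididymal fat (limma adjusted p = 0.442).

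The difference Npr1 minus Npr3, taken within a library, follows the balance of the cyclase receptor over the clearance receptor. Its size is not per length, so only its change between groups is read. In brown fat it was −0.22 and −0.12 in sunitinib libraries, against −1.13 and −1.59 in vehicle libraries, and the groups were far apart. The change was 1.19 ± 0.23, a 2.29-fold shift of the ratio towards Npr1, of which the Npr3 difference of −1.06 made up most and the Npr1 difference of 0.13 the rest. It ran from 0.96 to 1.42 when any 1 library was left out. The error of this change, here and in the other tissues, is the ordinary SE of 2 against 2 libraries, not moderated by limma. Because the difference was among the values that chose the genes, no test is given, and 2 against 2 libraries could not give an exact two-sided permutation p below 0.333.

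White fat differed in the same direction by less. In inguinal fat Npr1 minus Npr3 was −5.57 and −5.79 in sunitinib libraries, against −5.95 and −6.35 in vehicle libraries. The change of 0.48 ± 0.23 was 0.23 with quantile normalization, and 0.27 with vehicle replicate 2 left out. In epididymal fat the groups overlapped, with −5.85 and −5.65 in sunitinib and −6.10 and −5.75 in vehicle libraries, a change of 0.18 ± 0.20. That change ran from 0.00, with vehicle replicate 1 left out, to 0.35, with vehicle replicate 2 left out. Liver went the other way, at 0.94 and 1.11 in sunitinib livers and 1.38 and 1.24 in vehicle livers, a change of −0.28 ± 0.11.

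**Figure D3:**
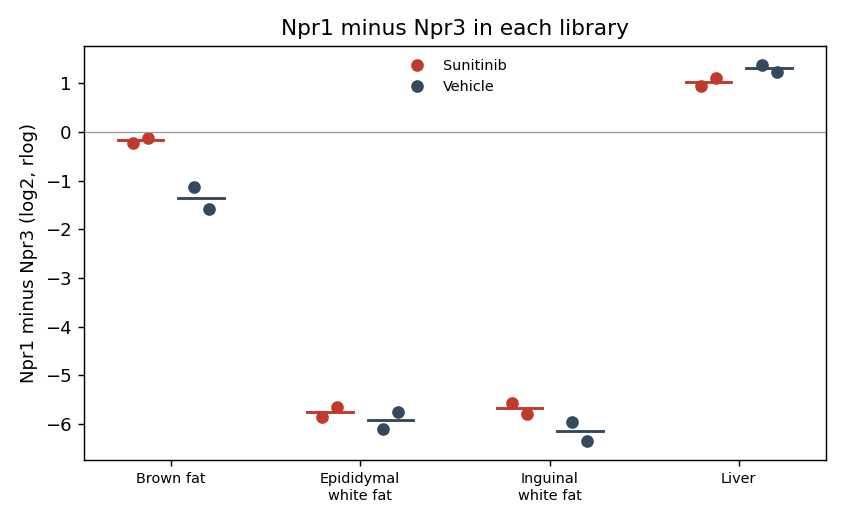
Npr1 minus Npr3 (vertical axis, log2 difference of rlog values, not per length) in each library, sunitinib in red left of vehicle in blue-grey, with bars at the mean of 2 libraries. In brown fat the sunitinib libraries, at −0.22 and −0.12, lay above both vehicle libraries, while in liver both sunitinib libraries lay below both vehicle libraries.

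Prkg1, the kinase downstream of the cyclase receptors, stood lower with sunitinib in inguinal fat and, through a single vehicle library, in brown fat. In brown fat it had 5.56 and 5.55 in sunitinib libraries, against 5.58 and 6.44 in vehicle libraries. Vehicle replicate 1 was level with the sunitinib pair, so the difference of −0.45 ± 0.27 rested on vehicle replicate 2. Without that library the difference was −0.03, and without vehicle replicate 1 it was −0.88. Vehicle replicate 2 was also the brown fat library with the highest skeletal muscle average, 12.06, where the other 3 had 10.23, 9.47 and 8.16. The muscle gene Acta1 was at 12.93 there.

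In inguinal fat Prkg1 had 5.29 and 4.81 in sunitinib libraries, against 6.10 and 6.03 in vehicle libraries. The vehicle pair agreed closely and both sunitinib libraries lay below it, as they did for 26.4% of all genes tested there. The difference of −1.01 ± 0.21 had an unadjusted p = 0.00777 and did not pass over all genes (limma adjusted p = 0.313). It was −1.25 without sunitinib replicate 1, −0.77 without sunitinib replicate 2, −0.98 without vehicle replicate 1 and −1.05 without vehicle replicate 2. Fits that leave 1 sunitinib library take their spread from the vehicle pair alone, so only the sizes are read. Skeletal muscle markers were lower in the same sunitinib libraries for 8 of 8 genes with a median of −3.04. Sunitinib replicate 2, with the lowest Prkg1, also had the lowest muscle average, 8.88. Whether skeletal muscle RNA contributed to the Prkg1 values of inguinal and brown fat was not tested.

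Mural cells, in which Prkg1 relaxes smooth muscle, gave a mixed picture. Their 10 markers were all negative in inguinal fat, at a median of −0.31, with Rgs5, a pericyte gene, at −0.80 ± 0.09, which did not pass (limma adjusted p = 0.285). In epididymal fat Prkg1 had 5.69 and 5.57 in sunitinib libraries, against 5.44 and 5.63 in vehicle libraries, a difference of 0.10 ± 0.09 (limma adjusted p = 0.578). The sunitinib library with the high smooth muscle genes held the Prkg1 value of 5.69, only slightly above the others. In liver Prkg1 was below the filter, with 1.97 and 2.01 in sunitinib and 2.05 and 2.03 in vehicle livers. Prkg2, the second cyclic GMP-dependent kinase, passed the filter in inguinal fat alone, at 4.73 and 5.18 in sunitinib and 5.13 and 4.73 in vehicle libraries.

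Genes whose libraries moved most like each member were named by the Pearson correlation of within-tissue deviations, each value minus the mean of its tissue. The libraries share treatment, tissue makeup and normalization, so these values are a description and have no p. For Npr1, over 16 libraries and 11113 genes, they were Etl4 (r = 0.84), Aqp1, the water channel of capillary endothelium (r = 0.83), Tek, the angiopoietin receptor (r = 0.83), the junction gene Jam2 (r = 0.83) and the semaphorin Sema6a (r = 0.82). For Npr3 they were Hspa12a (r = 0.90), Lep, which encodes leptin (r = 0.90), Nudt4 and Tmem65 (r = 0.88 each) and the kinase gene Map3k7 (r = 0.87). Lep and Npr3 were both below their tissue mean in all 6 sunitinib fat libraries and both above it in all 6 vehicle fat libraries. In vehicle replicate 1 of brown fat Lep was above it by only 0.06. Lep was picked by its correlation with Npr3 in these same libraries, so the shared signs are no separate support.

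For Npr2 the nearest genes were Adamts15 (r = 0.94), Sec16b (r = 0.91), Gstm3 (r = 0.90), AI429214 (r = 0.89) and Tmem141 (r = 0.88). For Prkg1, over the 12 fat libraries and 12558 genes, they were Itgb6 and AK085891 (r = 0.98 each), Ankrd23, Cacna2d1 and Itgb1bp2 (r = 0.97 each). Ankrd23 and Itgb1bp2 encode proteins of striated muscle, and Cacna2d1 a calcium channel subunit abundant there. Among the members themselves, r over 16 libraries was 0.69 between Npr3 and Prkg1, and −0.05 between Npr1 and Npr3.

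**Figure D4:**
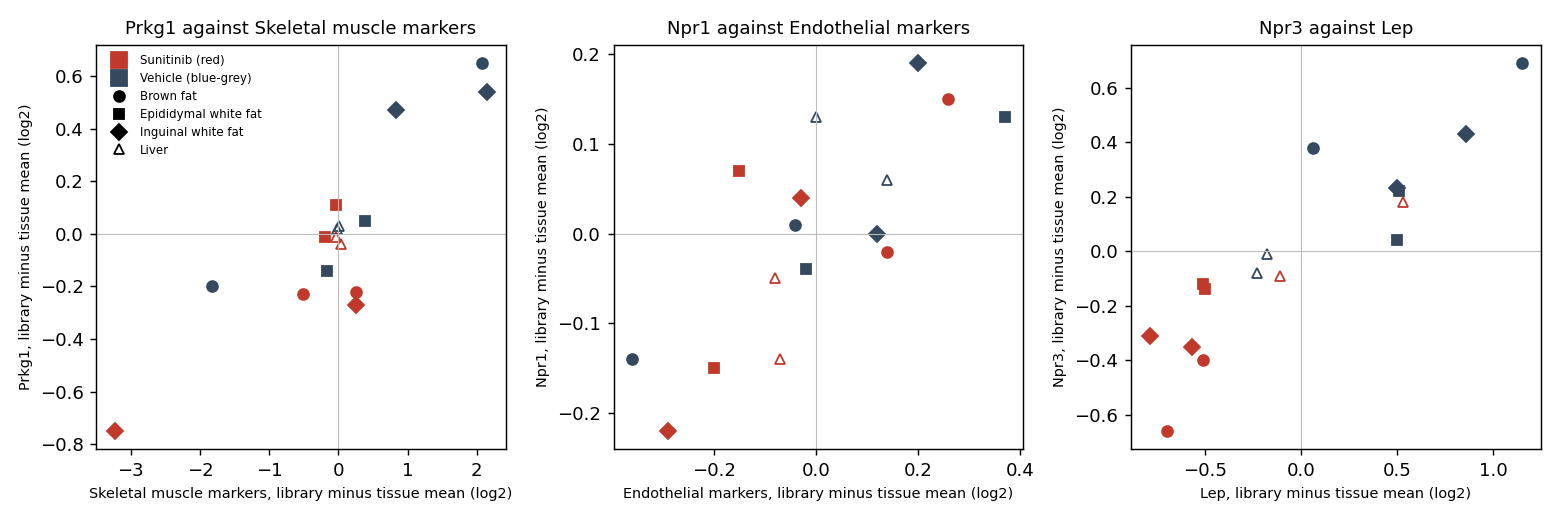
Library values minus their tissue mean (both axes, log2) for Prkg1 against the average of skeletal muscle markers, Npr1 against the average of endothelial markers, and Npr3 against Lep, with sunitinib in red, vehicle in blue-grey and a symbol per tissue. The highest Prkg1 deviations, 0.65, 0.54 and 0.47, were in the 3 vehicle fat libraries with muscle deviations of 2.08, 2.15 and 0.83. Vehicle replicate 1 of brown fat had −0.20 for Prkg1 at a muscle deviation of −1.82. Sunitinib replicate 1 had −0.22 in brown and −0.27 in inguinal fat, at a muscle deviation of 0.25 in each. The sunitinib fat libraries all lay below 0 for both Npr3 and Lep, which was picked by its correlation with Npr3 in these libraries.

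The rest of the pathway was followed with 5 lists of 59 symbols, older and newer names of a gene counted apart. Of these, 44 were tested in brown fat, 43 in epididymal fat, 43 in inguinal fat and 33 in liver. Limma called 0 of them in brown fat, 1 in epididymal fat, 0 in inguinal fat and 0 in liver, and 11, 8, 11 and 8 had an unadjusted p under 0.05 in the same order. Those were 25%, 18.6%, 25.6% and 24.2% of the listed genes tested, beside 16.1%, 20.1%, 12.7% and 8.64% of all genes tested. The epididymal share of 2.33% lay near the 2.34% of all genes there. Median differences over the listed genes were −0.02, 0.01, −0.17 and −0.03 in the same order of tissues, beside 0.00, 0.01, 0.01 and 0.00 over all genes tested.

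Of the peptide genes, Ostn alone passed the filter, in brown fat. Ostn encodes osteocrin, a muscle and bone peptide that binds Npr3, and had 3.38 and 3.37 in sunitinib libraries, against 3.38 and 4.00 in vehicle libraries (−0.32 ± 0.20, limma adjusted p = 0.471), highest in the library with the highest skeletal muscle average. In inguinal fat it was listed at 1.07 to 1.33. Nppa, the atrial peptide, was listed at −0.95 and −0.96 in sunitinib and −0.96 in both vehicle libraries of epididymal fat. In inguinal fat it was listed at −1.01 to −0.98. Nppc, the C-type peptide, was listed in inguinal fat alone at −1.06 to −1.01, and Nppb was looked up but listed in no tissue. Of the processing genes, Mme, the peptidase neprilysin that degrades natriuretic peptides, was lower in each tissue and passed in none of the 4. Brown fat had 10.35 and 10.58 in sunitinib libraries, against 10.93 and 10.76 in vehicle libraries, a difference of −0.38 ± 0.11 (limma adjusted p = 0.236). The Mme differences were −0.36 ± 0.19 in epididymal fat, −0.46 ± 0.15 in inguinal fat and −0.28 ± 0.11 in liver, with limma adjusted p = 0.361, 0.369 and 0.533 in that order. Corin, the protease that activates the atrial peptide, was at 5.06 and 5.29 in sunitinib and 4.78 and 4.92 in vehicle epididymal fat (0.33 ± 0.10, limma adjusted p = 0.166), and at or below 1.84 in every library of the other 3 tissues.

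Other sources of cyclic GMP are the soluble guanylyl cyclases, which answer nitric oxide, and the nitric oxide synthases. In inguinal fat 6 of 6 tested genes were negative with a median of −0.40, and in epididymal fat 6 of 6 with a median of −0.18. In brown fat 2 of 6 were negative with a median of 0.16, and in liver 0 of 3 with a median of 0.02. Medians over all genes tested were 0.01 in each white depot and 0.00 in brown fat and in liver. Of the listed genes 0 passed in limma in each of these tissues. Gucy1a3 and Gucy1b3, the subunits of the main soluble cyclase, differed by −0.39 ± 0.14 and −0.40 ± 0.14 in inguinal fat (limma adjusted p = 0.385 each), and by 0.15 ± 0.08 and 0.17 ± 0.06 in brown fat (limma adjusted p = 0.389 and 0.279). Nos3, the endothelial synthase, had 7.76 and 7.64 in sunitinib and 7.46 and 7.34 in vehicle brown fat, a difference of 0.30 ± 0.08 (limma adjusted p = 0.233). In epididymal fat Nos3 averaged 8.99 ± 0.02 in sunitinib and 9.31 ± 0.03 in vehicle libraries (SD, n = 2 each), a difference of −0.32 ± 0.06 (limma adjusted p = 0.0707). The 2 effects differed by 0.62 ± 0.10 (limma interaction adjusted p = 0.0194), in a contrast that called 461 of 12661 genes, 3.64%. Nos1, known from nerve and skeletal muscle, was at 5.82 and 5.32 in sunitinib and 7.56 and 6.76 in vehicle inguinal fat, a difference of −1.59 ± 0.35 (limma adjusted p = 0.313), beside the muscle markers given above.

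Pde2a, a phosphodiesterase that cyclic GMP stimulates, was the 1 listed gene that passed. In epididymal fat it had 10.70 and 10.57 in sunitinib libraries, against 11.50 and 11.66 in vehicle libraries, and fell by 0.94 ± 0.09 (limma adjusted p = 0.0216). The call was lost without vehicle replicate 1 (limma adjusted p = 0.218) and without vehicle replicate 2 (limma adjusted p = 0.257), with differences of −1.02 and −0.86. Brown fat had 9.80 and 9.72 in sunitinib libraries, against 9.46 and 9.14 in vehicle libraries, a difference of 0.46 ± 0.12 (limma adjusted p = 0.232). The brown fat effect minus the epididymal effect was 1.41 ± 0.16 (limma interaction adjusted p = 0.00644), and the epididymal effect minus the liver effect was −0.73 ± 0.14 (limma interaction adjusted p = 0.0221). Inguinal fat and liver had Pde2a differences of −0.51 ± 0.10 and −0.21 ± 0.09 (limma adjusted p = 0.313 and 0.562). These signs followed those of the endothelial markers in each tissue, with medians of 0.38 in brown fat, −0.37 in epididymal fat, −0.28 in inguinal fat and −0.12 in liver, and macrophage markers were lower as well. In epididymal fat their 7 genes averaged 11.10 and 11.14 in sunitinib libraries, against 11.89 and 11.86 in vehicle libraries. All 7 were negative there at a median of −0.79, and limma called 5 of them, among them Cd68 at −1.32 (adjusted p = 0.0151), while it called 0 of 10 endothelial markers. Macrophage medians were −0.16 in brown fat, where Pde2a was positive, −0.43 in inguinal fat and −0.08 in liver. The part of endothelial cells and of macrophages in the Pde2a values was not tested.

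**Figure D5:**
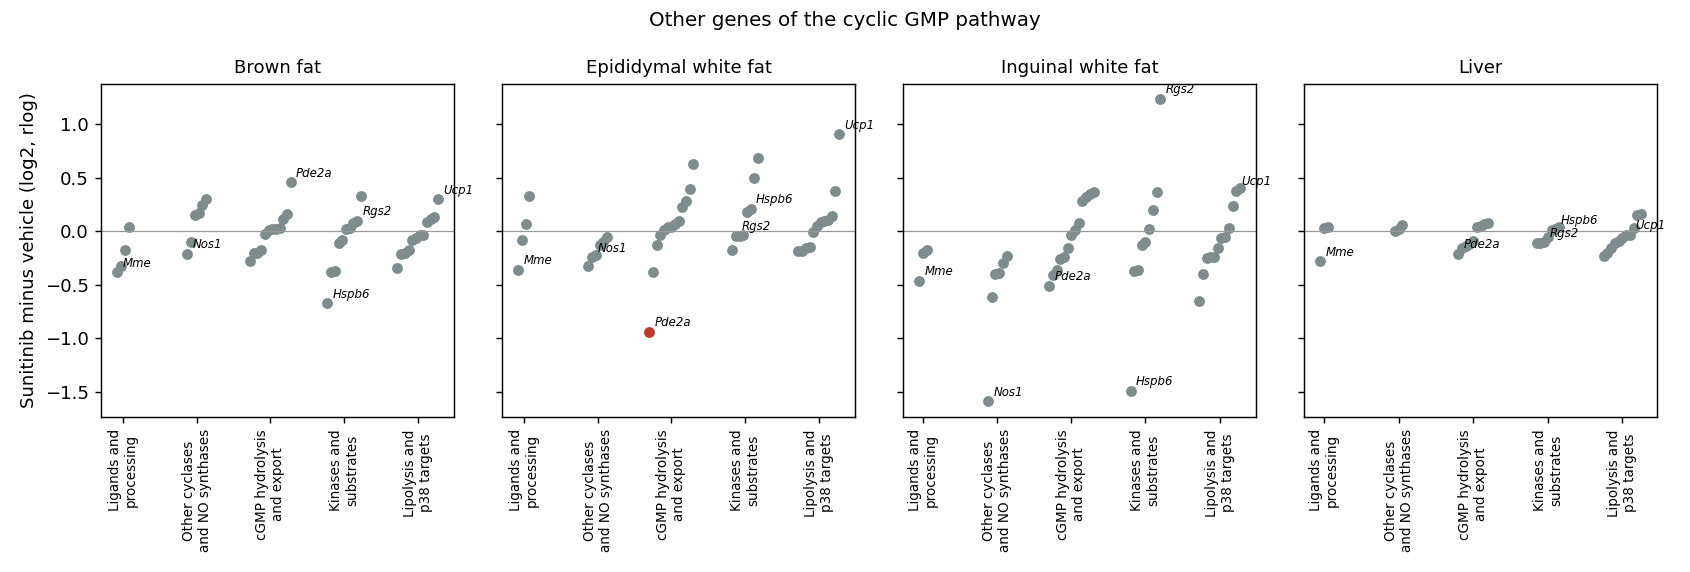
Sunitinib minus vehicle (vertical axis, log2 difference of rlog values) of the tested genes of 5 pathway lists in each tissue, 1 point per gene, with the gene that passed limma at an adjusted p below 0.05 in red and selected genes named. Pde2a in epididymal fat, at −0.94, was the single gene past the threshold.

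Among other phosphodiesterases, Pde1a, which calcium and calmodulin activate, differed by 0.63 ± 0.10 in epididymal fat (limma adjusted p = 0.0579) and by −0.20 ± 0.06 in brown fat (limma adjusted p = 0.257). Its brown fat effect minus its epididymal effect was −0.83 ± 0.13 (limma interaction adjusted p = 0.0162), and its epididymal effect minus its liver effect was 0.72 ± 0.12 (limma interaction adjusted p = 0.0149). Pde3b, the adipocyte enzyme that cyclic GMP inhibits, had 11.31 and 11.59 in sunitinib and 11.83 and 11.65 in vehicle brown fat (−0.28 ± 0.12, limma adjusted p = 0.326), and differed by 0.40 ± 0.10 in epididymal fat (limma adjusted p = 0.135). Pde5a, the cyclic GMP-specific enzyme, was low in brown fat, at 5.03 and 5.08 in sunitinib and 4.87 and 4.99 in vehicle libraries (0.12 ± 0.07, limma adjusted p = 0.404). The list as a whole had medians of 0.01, 0.04, −0.03 and −0.09 in brown fat, epididymal fat, inguinal fat and liver.

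Of the kinase substrates, 0 passed in limma in any of the 4 tissues. Vasp, a regulator of actin that the kinase phosphorylates, had 8.58 and 8.50 in sunitinib and 8.26 and 8.17 in vehicle brown fat (0.33 ± 0.07, limma adjusted p = 0.228). Its effect in epididymal fat was −0.17 ± 0.07 (limma adjusted p = 0.260), and the brown fat effect minus the epididymal effect was 0.49 ± 0.10 (limma interaction adjusted p = 0.0380). Hspb6, a small heat shock protein of muscle that the kinase phosphorylates, differed by −1.49 ± 0.20 in inguinal fat (limma adjusted p = 0.303). In brown fat it was at 8.43 and 8.47 in sunitinib libraries, against 8.08 and 10.15 in vehicle libraries. The high value was in the same vehicle library as for Prkg1, the one with the highest skeletal muscle average. Rgs2, a G-protein regulator that the kinase activates, had the largest positive difference of the listed genes in inguinal fat, with 9.51 and 8.74 in sunitinib against 8.07 and 7.69 in vehicle libraries (1.24 ± 0.31, limma adjusted p = 0.340). Mrvi1, an anchor of the kinase in smooth muscle, was at 8.80 in the epididymal sunitinib library with high Myh11, at 7.53 in the other sunitinib library, and at 7.36 and 7.59 in vehicle libraries.

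Targets of the pathway in adipocytes did not pass in limma in any of the 4 tissues either, and in brown fat the thermogenic genes went in different directions. Ucp1, the uncoupling protein, had 16.93 and 16.80 in sunitinib and 16.68 and 16.46 in vehicle brown fat (0.30 ± 0.13, limma adjusted p = 0.324). Ppargc1a, its coactivator, had 8.80 and 8.76 in sunitinib and 9.14 and 9.09 in vehicle brown fat (−0.34 ± 0.06, limma adjusted p = 0.228), and Atf2, a transcription factor that p38 activates, differed by −0.21 ± 0.07 (limma adjusted p = 0.271). The lipases differed little there, with Lipe at −0.03 ± 0.09 and Pnpla2 at 0.12 ± 0.10 (limma adjusted p = 0.886 and 0.562). Map2k6, a kinase upstream of p38, differed by −0.65 ± 0.19 in inguinal fat, −0.16 ± 0.07 in epididymal fat and −0.23 ± 0.08 in liver (limma adjusted p = 0.362, 0.298 and 0.457). The 12 genes of this list had medians of −0.04 in brown fat, 0.07 in epididymal fat and −0.11 in inguinal fat, and 11 tested genes had −0.06 in liver.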

How the data were processed

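Total RNA was sequenced from 16 libraries, 2 sunitinib and 2 vehicle in each of 4 tissues. The authors deposited regularized log2 expression, 1 table for each tissue. The submitters' processing notes list TopHat2 2.1.1, DESeq2, bcl2fastq 2.17.1.14 and bedtools beside mouse build mm9, without the role of each. The sources used here do not give the annotation, the counting or the use of strand. In GENCODE M21 (build GRCm38) exons of Npr1, Npr2 and Npr3 overlap single exons of predicted genes on the other strand. The largest such overlaps are 157, 266 and 273 bases in that order. With the use of strand unknown, it is unknown whether reads there were told apart. That annotation was used for transcript lengths, chromosomes and these overlaps only, and isoforms in mm9 may differ. Regularized log values are shrunk towards the gene's mean, most at low counts, so differences and their errors are understated for genes with few reads, and shrinkage can differ between tables.

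Groups and replicate numbers come from the titles. Sunitinib livers are replicates 3 and 4 there, while the column names number them 1 and 2. Each tissue was fitted alone with limma (version 3.58.1, R 4.3.3), its spread moderated with an intensity trend, on genes with a mean of at least 3, with 2 residual degrees of freedom. Tests are two-sided and an adjusted p below 0.05 (Benjamini-Hochberg over all genes tested) counts as passing. Alternatives were other filters, normalizations, variance models, a joint fit, a replicate block and leaving out each library. The named list genes were meant to be those that passed and up to 4 more per list and tissue by p. The genes of likeness are the 5 highest correlations. The order by p was not kept throughout. Genes left unnamed include Nos2 in inguinal fat (−0.61 ± 0.14, limma adjusted p = 0.321) and Itpr1 in brown fat (−0.37 ± 0.11, limma adjusted p = 0.246). Abcc4 in liver (−0.14 ± 0.04, limma adjusted p = 0.331) was also left unnamed. Each had a smaller p than a named gene of its list and tissue. Beyond these rules, Nppa, Nppc, Prkg2, Lipe, Pnpla2, Acta1, Myh11, Rgs5, Cd68, Cfd and, in brown fat, Pde5a and Hspb6 were chosen after their values were seen. The members, lists and tests were chosen with earlier results of these data known.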

Additional observations from a re-analysis of the deposited data

Results flagged for a closer look

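The change in Npr1 minus Npr3 was 1.19 in brown fat and −0.28 in liver, and this difference between tissues was not tested. The brown fat change was among the values that chose the genes, so it is a description only. In inguinal fat the change was 0.48, and its difference from liver was also not tested.

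Among the other pathway genes, some effects differed between tissues by the limma interaction test over all genes. They did so in brown minus epididymal fat and in epididymal fat minus liver, which called 3.64% and 3.95% of all genes. In brown minus inguinal fat Pde2a, Pde1a, Nos3 and Vasp did not pass (limma interaction adjusted p = 0.145, 0.447, 0.333 and 0.967 in that order). For Pde2a the brown fat effect of 0.46 minus the epididymal effect of −0.94 was 1.41, and the epididymal effect minus the liver effect of −0.21 was −0.73. For Pde1a the brown fat effect of −0.20 minus the epididymal effect of 0.63 was −0.83, and the epididymal effect minus the liver effect of −0.09 was 0.72. For Nos3 the brown fat effect of 0.30 minus the epididymal effect of −0.32 was 0.62. For Vasp the brown fat effect of 0.33 minus the epididymal effect of −0.17 was 0.49.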

How the results depend on the processing

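Over 19 results on the 4 members and on Npr1 minus Npr3, 120 of 122 values under other settings stayed on the same side of the threshold or within the spread between libraries. The exceptions were Npr3 in inguinal fat, which passed in 1 fit over all 4 tissues at −0.66 (limma adjusted p = 0.00577), and Npr1 minus Npr3 in inguinal fat, whose change was 0.23 with quantile normalization. The cause was not tested. Prkg1 is absent from the joint fit because it was not tested in liver. In brown fat, where the members have no test, only the size of the difference was judged. Other filters, variance models, the joint fit and the replicate block cannot change that size. Agreement under those settings in brown fat was therefore fixed in advance and is no sign of robustness. Leaving out 1 sunitinib library took 2 of the members' tested results across the threshold, Npr3 and Prkg1 in inguinal fat. Those fits took their spread from the vehicle pair alone. With any 1 library left out, Npr3 there ran from −0.76 to −0.56 and Prkg1 from −1.25 to −0.77. Other results moved widely. Prkg1 in brown fat, which has no test, ran from −0.88 to −0.03. Npr2 in inguinal fat ran from −0.34 to 0.30, and Npr1 minus Npr3 in epididymal fat from 0.00 to 0.35.

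Counts of genes called moved more. Brown fat had 1 gene in 1 fit over all 4 tissues, and 0 to 1292 genes and 0 to 11 pathway genes without 1 library. Epididymal fat had 210 genes with no filter, 569 with a mean of at least 5, 584 with robust moderation and 678 with the replicate block, each of the last 3 with 2 pathway genes, and 0 to 1121 genes and 0 to 8 pathway genes without 1 library. Inguinal fat had 2425 genes and 8 pathway genes in 1 fit over all 4 tissues, and 0 to 4103 genes and 0 to 13 pathway genes without 1 library. Liver had 3 genes with no intensity trend, 0 in 1 fit over all 4 tissues, and 50 to 454 genes and 0 to 2 pathway genes without 1 library. A fit without 1 library takes its spread from the pair left intact.

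Titles share replicate numbers in the fat depots, but nothing says that a number marks a shared animal or batch. Deviations of same-numbered libraries correlated at −0.26 in brown, 0.22 in epididymal and 0.11 in inguinal fat. With the replicate block no call of a member changed, where Npr3 in inguinal fat had a limma adjusted p = 0.560 and Prkg1 there 0.334. No paired analysis was possible in liver because the groups share no number. Place by percentile put brown fat at place 1 from the highest for Prkg1 and at place 2 by rlog value. Depth limits are unknown because the tables hold no read totals.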
